A study of Mus musculus with 20 samples.

Results

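Hearts of mice fed pravastatin were set against hearts of mice fed atorvastatin, using 8 of the 20 arrays of a study of statins in the mouse left ventricle. Members were chosen by the treatment label alone, as the 4 arrays labelled pravastatin and the 4 labelled atorvastatin, and the 4 control arrays are quoted beside them. All mice were male C57BL/6J that were 6 weeks old on arrival; feeding began after 2 weeks of acclimation and lasted 4 weeks, after which the heart was taken. Pravastatin mice received pravastatin sodium at 21.0 mg/kg/day, atorvastatin mice received atorvastatin calcium hydrate at 11.4 mg/kg/day, and control mice ate the chow with no statin. Both drugs were powdered tablets mixed into standard chow, and the doses were calculated from an assumed food intake of 0.15 g per g of body weight. Each array holds the left ventricle of a separate mouse, per the labels. The labels name no mutation, transgene or induced heart disease. The doses differ between the drugs, so each difference below is one between these doses, and drug and dose cannot be told apart.

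Statins block an early step of the mevalonate pathway, from which cells make cholesterol, coenzyme Q and the prenyl groups that anchor small GTPases to membranes. When a cell runs low on sterol, the transcription factor SREBP2 is released from the endoplasmic reticulum and switches on the genes of sterol synthesis and of lipoprotein uptake, and in liver this response is a usual mark of statin action. Pravastatin and atorvastatin share the dihydroxy acid side chain that mimics a substrate of this pathway. They differ in the rest of the molecule: pravastatin is derived from a fungal product, carries an added hydroxyl group on its ring system and is hydrophilic, whereas atorvastatin is fully synthetic, is built on a pyrrole ring with aromatic groups and is lipophilic. Entry of pravastatin into cells relies largely on transport proteins. Heart muscle takes most of its energy from fatty acids, and the genes of that pathway are under the control of the nuclear receptor PPAR alpha, which fasting activates.

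No probe set differed between pravastatin and atorvastatin hearts after adjustment over the 22518 tested (limma with Benjamini-Hochberg adjustment, 0 called or 0%, smallest adjusted p = 0.9999). The comparison is of 1 pair of statins. A probe set is a group of short probes that reads 1 transcript or a few close ones, and its level is given throughout as log2(signal + 16). At an unadjusted p under 0.05 there were 700 probe sets, or 3.11%, of which 410 lay higher and 290 lower in pravastatin hearts, and 5% of all tested would be 1126. Differences are pravastatin minus atorvastatin on that log2 scale, so a positive one means a higher level in pravastatin hearts. Their median was 0.004, 51.4% lay above 0, and 5 probe sets differed by more than 2-fold. The groups did not overlap, with all 4 pravastatin arrays above all 4 atorvastatin arrays, for 1.18% of probe sets, and with all 4 below for 0.786%. The median 95% interval reached 0.36 to either side, so that the whole interval lay within 2-fold for 87.5% of probe sets and within 1.5-fold for 64.4%. The values that follow are therefore differences that did not pass, and intervals that say how large a difference the 4 arrays of each drug leave possible.

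The arrays had been scaled to a trimmed mean signal of 500 each, yet their median signal ranged from 63.0 to 108 in pravastatin hearts, from 65.2 to 144 in atorvastatin hearts and from 80.5 to 119 in control hearts. Atorvastatin 2 held the highest median, 144, and lay at the far end (-81.6) of the first principal component of the 8 arrays, which took 62.9% of their variance. Along that component the 8 arrays stood in the exact reverse order of their median signals, from pravastatin 1 at 51.8, with a median of 63.0, to atorvastatin 2. No difference in median signal was detected between the drugs (two-sided exact permutation test, p = 0.914, where 0.0286 is the smallest p that 4 against 4 arrays allow). The middle 18S ribosomal RNA probe set, a control for RNA carried through amplification, read 11.72, 11.61, 12.07 and 12.24 in pravastatin hearts against 11.37, 11.41, 11.70 and 11.32 in atorvastatin hearts (difference 0.46, exact permutation p = 0.0571, adjusted p = 0.457 over 8 array measures). In control hearts it read 11.13, 11.39, 11.35 and 11.45, below all 4 pravastatin hearts, and that difference was not tested. Cardiomyocyte markers were bright in every heart: Myh6, the main myosin heavy chain of the adult mouse ventricle, lay between 14.80 and 15.26 in pravastatin hearts, between 14.38 and 15.71 in atorvastatin hearts and between 15.01 and 15.46 in control hearts. Of 9 atrial markers, Myl7, Sln and Bmp10 were not among the tested probe sets. Of the 6 measured, 3 lay higher and 3 lower in pravastatin hearts, with a median difference of -0.01. Their summed signal ran from 6804 to 10507 in pravastatin hearts, from 6084 to 12554 in atorvastatin hearts and from 8932 to 10978 in control hearts. In bulk tissue, fewer cells of a type and less RNA per cell cannot be told apart.

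The genes of cholesterol synthesis lay at similar levels in the hearts of both drugs. Of 8 measured genes from acetoacetyl-CoA to squalene, 4 lay higher and 4 lower in pravastatin hearts, with a median difference of -0.003, and of 8 measured genes after squalene, 6 lay higher and 2 lower, with a median of 0.08, beside 0.004 over all tested probe sets. No member of either list passed the test, and none had an unadjusted p under 0.05. Hmgcs1, the synthase that makes HMG-CoA and a standard readout of SREBP2 activity, read 12.83, 12.81, 12.97 and 12.96 in pravastatin hearts, 12.90, 12.58, 12.81 and 13.31 in atorvastatin hearts, and 12.90, 12.69, 12.92 and 12.90 in control hearts. Atorvastatin hearts held both the lowest and the highest of these values, and the pravastatin hearts lay between them. The difference was -0.01 (95% interval -0.24 to 0.22), and the other 3 tested probe sets of Hmgcs1 gave 0.12, 0.15 and 0.13.

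The promoter of Hmgcs1 is shown because this gene carries the sterol readout. It is the 250 bases before the RefSeq start of the gene on the plus strand, chr13:119690101-119690350 in GRCm38.p6, in lower case, with the match to a sterol regulatory element (TCACNCCAC, searched on both strands) in capitals.
Hmgcs1 promoter: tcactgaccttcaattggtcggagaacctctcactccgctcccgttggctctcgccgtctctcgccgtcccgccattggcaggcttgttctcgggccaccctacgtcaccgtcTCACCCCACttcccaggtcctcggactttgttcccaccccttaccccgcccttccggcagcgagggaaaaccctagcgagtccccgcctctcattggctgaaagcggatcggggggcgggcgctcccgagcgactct
There was 1 match, beginning 137 bases before the start. Such a match was found in 346 of 32851 RefSeq promoters of that length. It describes the letters of this window and was not tested as a site in these hearts.

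Among the other enzymes of the pathway, Fdft1, squalene synthase, read 11.18, 10.66, 10.58 and 10.54 in pravastatin hearts against 11.35, 10.84, 10.99 and 10.86 in atorvastatin hearts, a difference of -0.27 (95% interval -0.60 to 0.07) with overlapping groups, or -0.16 without atorvastatin 1. Msmo1, a methylsterol oxidase, read 8.38, 8.51, 8.26 and 8.35 in pravastatin hearts, 8.25, 8.02, 8.23 and 7.76 in atorvastatin hearts, and 8.10, 8.29, 8.70 and 8.81 in control hearts. Of the 16 genes of both lists, it was the only one whose groups did not overlap, beside 1.18% of all tested probe sets with pravastatin higher. Its difference of 0.31 (SE 0.16, interval -0.02 to 0.64) did not pass the test (limma, adjusted p = 0.9999), and its other, dimmer probe set gave -0.03. Sqle, squalene epoxidase, lay at 6.97 ± 0.45 in pravastatin hearts and 6.73 ± 0.22 in atorvastatin hearts (SD, n = 4 each), with the 2 highest values in pravastatin 3 and 4. Its difference was 0.24, with a 95% interval of -0.25 to 0.73. Cyp51, the sterol demethylase, differed by 0.08 (interval -0.15 to 0.30), and Idi1, the isomerase that sets the balance of the isoprenoid building blocks, by 0.15 (interval -0.12 to 0.42). The 95% intervals of all 16 of these genes lay within 2-fold in either direction.

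Genes of SREBP control and of sterol uptake and export lay more often lower in pravastatin hearts, 11 of 15 measured, with a median of -0.09, where 51.4% of all tested probe sets lay above 0. Of the 15, 3 had an unadjusted p under 0.05, beside 3.11% of all tested, and none passed the test; without pravastatin 4 the members lying higher numbered 7. The lists were chosen with earlier results of these data known, so such shares, here and below, are descriptions. Npc1, which carries cholesterol out of lysosomes, read 8.55, 8.69, 8.80 and 8.98 in pravastatin hearts, 9.20, 9.43, 9.09 and 8.98 in atorvastatin hearts, and 9.20, 8.82, 8.85 and 8.93 in control hearts. The highest pravastatin heart and the lowest atorvastatin heart met at about 8.98, and the difference was -0.42 (SE 0.13, 95% interval -0.70 to -0.14). Abca1, a pump that loads cholesterol onto lipoproteins, and Srebf1, the factor of fatty acid synthesis, lay at -0.28 (interval -0.54 to -0.01) and -0.27 (interval -0.53 to -0.01). Abcg1, another cholesterol exporter that responds to the same oxysterol receptors as Abca1, lay the other way at 0.36 (interval -0.03 to 0.74), or 0.20 without atorvastatin 2. Insig1, which holds SREBP in the endoplasmic reticulum and is itself a target of SREBP2, read 12.59 ± 0.18 in pravastatin hearts and 12.65 ± 0.21 in atorvastatin hearts (SD, n = 4 each), with a difference of -0.06. Srebf2, the gene of SREBP2, had a difference of -0.13 with an interval of -0.53 to 0.28. Over the 31 genes of the 3 sterol lists, every interval lay within 2-fold and 22 lay within 1.5-fold in either direction.

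**Figure D1:**
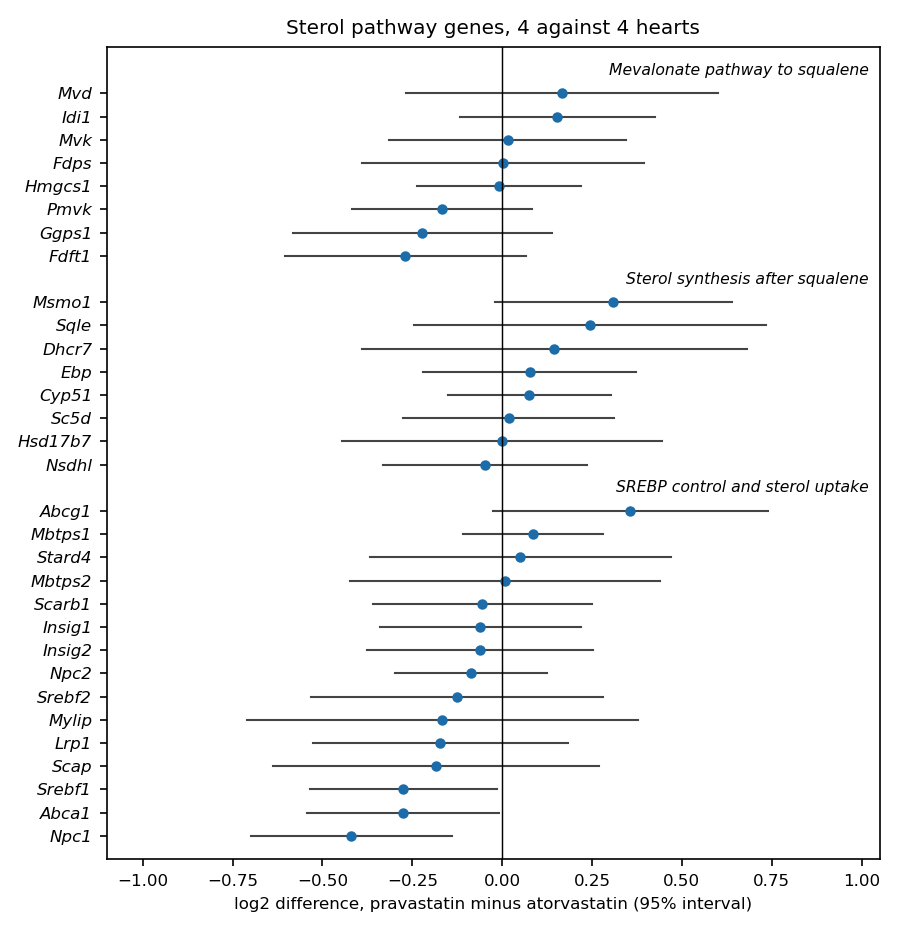
Difference of each measured gene of 3 sterol lists between pravastatin and atorvastatin hearts (dots, log2 scale) with its 95% interval (lines), n = 4 hearts each. The largest difference is that of Npc1, at -0.42, and all 31 intervals lie between -0.71 and 0.74.

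The other branches of the mevalonate pathway gave differences of like size. Of 14 measured genes of protein prenylation and small GTPases, 9 lay higher and 5 lower in pravastatin hearts (median 0.04). Of the 14, 1 had an unadjusted p under 0.05, beside 3.11% of all tested probe sets. That gene was Icmt, the methyltransferase that finishes prenylated proteins, which read 9.76, 9.95, 9.78 and 9.71 in pravastatin hearts, 9.57, 9.16, 9.52 and 9.54 in atorvastatin hearts, and 9.40, 9.66, 9.56 and 9.35 in control hearts. All 4 pravastatin hearts lay above all 4 atorvastatin hearts, as for 1.18% of all tested probe sets. The difference was 0.35 (SE 0.10, 95% interval 0.15 to 0.56, limma adjusted p = 0.9999). Without atorvastatin 2, the lowest heart, it was 0.26. Rhoa, a small GTPase that statins can displace from membranes, differed by -0.03 (interval -0.19 to 0.13), and Fnta, the shared subunit of the enzymes that attach prenyl groups, by -0.04. Of 11 genes of coenzyme Q synthesis, 10 lay higher in pravastatin hearts, by small amounts (median 0.11, highest 0.18 for Coq10a), and none had an unadjusted p under 0.05. Without atorvastatin 2 that median was 0.01, with 8 higher. The exception was Coq10b, a coenzyme Q binding protein, at -0.28 (interval -0.66 to 0.11), while its dimmer probe set gave 0.14; without atorvastatin 4 the first was -0.11.

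Proteins that carry or metabolise statins lay more often lower in pravastatin hearts, 10 of 13 measured, with a median of -0.12. Abcb1b, a multidrug exporter of the P-glycoprotein family, read 8.51, 8.66, 8.13 and 8.29 in pravastatin hearts, 8.72, 8.74, 8.69 and 8.64 in atorvastatin hearts, and 8.83, 8.40, 8.28 and 8.21 in control hearts. Its atorvastatin values were tightly grouped and the highest pravastatin value lay just among them (difference -0.30, interval -0.58 to -0.02, unadjusted p = 0.0361), which did not pass. Slco2b1, an organic anion uptake carrier, had a difference of -0.12 (interval -0.42 to 0.19), and Abcc4, an exporter of organic anions, had one of -0.09 (interval -0.49 to 0.31). Of the liver enzymes of statin metabolism in the list, Cyp3a11, Cyp3a13, Cyp2c29 and Ugt1a1 were not among the tested probe sets.

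Genes that respond to fasting through PPAR alpha included Angptl4, the gene with the difference farthest from 0 of all those named. Of 17 measured, 14 lay lower and 3 higher in pravastatin hearts (median -0.12, against 0.004 over all probe sets), and 6 lower and 1 higher had an unadjusted p under 0.05, or 7 of 17 beside 3.11% of all tested probe sets. None passed the test, and without atorvastatin 4 the members lying higher numbered 7 of 17. As the list was chosen with earlier results of these data known, its share is a description. Angptl4, a secreted inhibitor of lipoprotein lipase and a classic PPAR target, read 6.69, 7.53, 6.43 and 6.92 in pravastatin hearts, 8.56, 9.60, 8.57 and 8.27 in atorvastatin hearts, and 9.17, 8.99, 7.30 and 8.12 in control hearts. All 4 pravastatin hearts lay below all 4 atorvastatin hearts, and the control hearts reached into both ranges. The difference was -1.86 (SE 0.43, 95% interval -2.76 to -0.95), or 0.276-fold, with an unadjusted p of 0.000389 and a limma adjusted p of 0.9999. Leaving out each heart in turn gave values from -2.07 to -1.57, and the value nearest 0 came without atorvastatin 2. Against the control hearts, which both comparisons share, the pravastatin hearts lay at -1.50 (SE 0.43, adjusted p = 0.78) and the atorvastatin hearts at 0.35 (SE 0.43, adjusted p = 0.96), limma values that did not pass.

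Ucp3, a mitochondrial uncoupling protein of muscle, read 8.20, 8.58, 8.37 and 8.57 in pravastatin hearts, 9.47, 9.95, 9.10 and 8.82 in atorvastatin hearts, and 9.62, 9.09, 8.47 and 8.58 in control hearts. The drugs did not overlap, and the pravastatin hearts were narrowly grouped, below the 2 highest control hearts. The difference was -0.91 (interval -1.56 to -0.25), the dimmer probe set of Ucp3 gave -0.65, and without atorvastatin 2 the difference was -0.70. Cpt1a, the liver isoform of the carnitine palmitoyltransferase that admits fatty acids to mitochondria, had 3 tested probe sets, at -0.75, -0.59 and -0.46, each with an unadjusted p under 0.05. By the probe set with the smallest p it read 9.97, 10.001, 9.54 and 9.99 in pravastatin hearts, 11.05, 10.58, 10.31 and 10.56 in atorvastatin hearts, and 11.01, 9.86, 9.65 and 9.95 in control hearts. The drugs did not overlap by that probe set, whereas by the other 2 they did.

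A further 3 genes of the list, described because of their values, lay the same way. Txnip, a thioredoxin inhibitor that limits glucose uptake, read 13.44, 13.50, 12.92 and 12.54 in pravastatin hearts, 13.45, 14.14, 13.69 and 13.80 in atorvastatin hearts, and 13.71, 13.77, 12.91 and 12.45 in control hearts. Mice 3 and 4 were low and mice 1 and 2 high in both the pravastatin and the control group, and the difference of -0.67 had an interval of -1.21 to -0.12, beside -0.66 by its dimmer probe set. Acot1, an acyl-CoA thioesterase, had a difference of -0.48 (interval -0.94 to -0.02), or -0.31 without atorvastatin 1, and Plin2, a lipid droplet coat protein, one of -0.24 (interval -0.44 to -0.04). Pdk4, the kinase that shuts down pyruvate oxidation and one of the most fasting-responsive genes of heart, lay at 14.65 ± 0.13 in pravastatin hearts, 14.93 ± 0.47 in atorvastatin hearts and 14.87 in control hearts (SD, n = 4 each), with a difference of -0.28 and an interval of -0.70 to 0.13, or -0.12 without atorvastatin 2. Ddit4, an inhibitor of mTOR that fasting and glucocorticoids raise, lay the other way: 11.22, 11.45, 11.19 and 11.37 in pravastatin hearts, all above the 10.97, 10.50, 10.57 and 11.15 of atorvastatin hearts (difference 0.51, interval 0.10 to 0.92). Food intake and the time since the last meal were not given in the sources used here, and their part in these values was not tested.

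**Figure D2:**
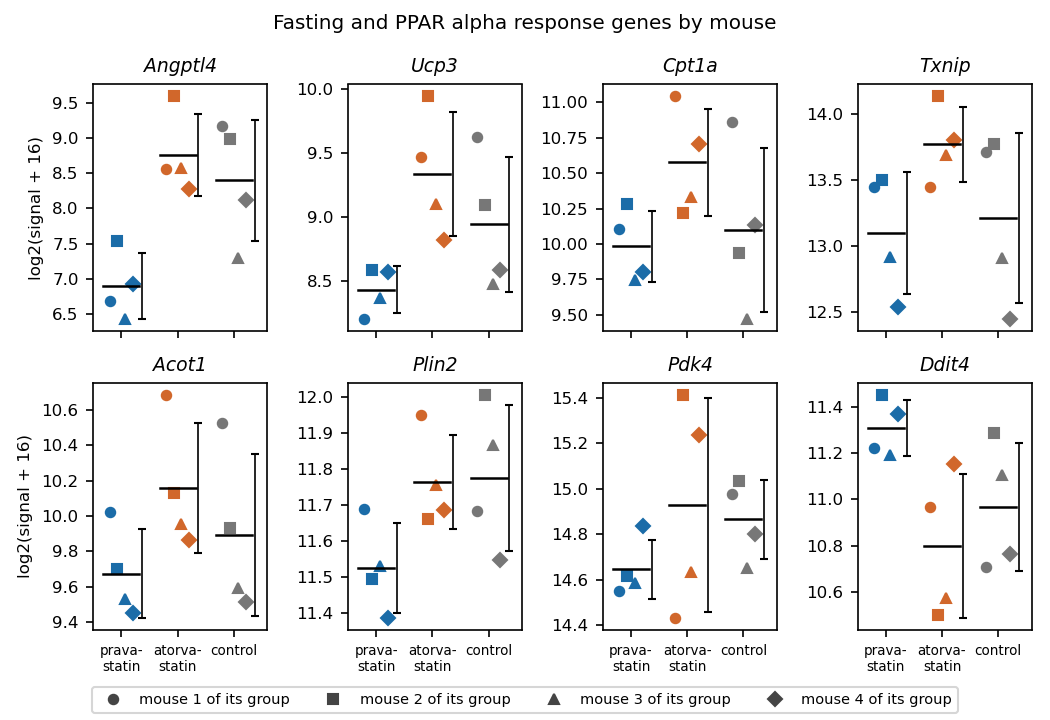
Level of 8 genes of the fasting and PPAR alpha list in each heart (log2(signal + 16), 1 point per mouse, 4 mice per group, bar at the group mean, whisker 1 SD), with pravastatin left, atorvastatin in the middle and control right; each panel has its own axis, which does not start at 0. Angptl4 lies between 6.43 and 7.53 in pravastatin hearts and between 8.27 and 9.60 in atorvastatin hearts, and in Ddit4 the order is the opposite one. The Cpt1a panel shows its brightest probe set, in which the drugs overlap, and not the probe set whose values the text gives.

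The enzymes of fatty acid oxidation themselves lay within narrow bounds. Of 17 measured genes, 11 lay higher and 6 lower in pravastatin hearts, all between -0.03 and 0.12, and none had an unadjusted p under 0.05. Acadm, the medium-chain acyl-CoA dehydrogenase, averaged 14.42 ± 0.10 in pravastatin hearts and 14.42 ± 0.35 in atorvastatin hearts (SD, n = 4 each), and Hadha, of the trifunctional protein, differed by 0.01 (interval -0.21 to 0.24). All 17 intervals lay within 1.5-fold. The same held for all 38 genes of oxidative phosphorylation, whose differences ran from -0.08 to 0.13 with a median of 0.02 and 20 lying higher, and for all 17 of the tricarboxylic acid cycle, from -0.09 to 0.21. The number lying higher moved with single hearts: of the 38 genes of oxidative phosphorylation it was 5 without atorvastatin 1 and 38 without atorvastatin 4, and of the 17 of fatty acid oxidation 5 and 16. Pank1, a pantothenate kinase that starts the synthesis of coenzyme A, gave -0.79 by its dimmest probe set, which read 7.74, 7.43, 7.48 and 7.92 in pravastatin hearts, 8.48, 8.78, 8.23 and 8.22 in atorvastatin hearts, and 7.96, 7.51, 8.06 and 7.86 in control hearts. Its other 3 probe sets, at higher levels, gave -0.18, -0.16 and -0.29, with overlapping groups.

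Genes of fatty acid and triglyceride synthesis divided evenly, 9 higher and 10 lower of 19 measured (median -0.003). Gpam, the acyltransferase that starts triglyceride synthesis, read 13.24, 13.27, 13.05 and 13.04 in pravastatin hearts, all below the 13.30, 13.40, 13.38 and 13.67 of atorvastatin hearts (difference -0.28, interval -0.50 to -0.07), and its dim probe set gave 0.08. Scd2, a stearoyl-CoA desaturase, lay higher by both tested probe sets. Its brighter probe set read 10.14, 10.33, 10.40 and 10.17 in pravastatin hearts, all above the 10.10, 9.39, 9.97 and 9.87 of atorvastatin hearts, with 10.09, 9.59, 10.29 and 10.25 in control hearts (difference 0.43, interval 0.02 to 0.84). The dimmer one gave 0.78, with groups that overlapped. Lpin2, a phosphatidate phosphatase, had a difference of 0.33 (interval 0.06 to 0.60), Fasn, fatty acid synthase, one of -0.36 (interval -0.75 to 0.03), and Scd1, the desaturase related to Scd2, one of 0.00 (interval -0.29 to 0.28). Fabp4, a fatty acid carrier of capillary endothelium and fat, lay at -0.60 by a dim probe set, while its 2 bright probe sets gave -0.11 and -0.16.

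In glycolysis, 11 of 16 measured genes lay higher in pravastatin hearts (median 0.06). Pgam1, phosphoglycerate mutase, read 12.15, 12.08, 12.15 and 12.27 in pravastatin hearts, 11.91, 11.33, 11.70 and 11.91 in atorvastatin hearts, and 11.64, 11.75, 12.22 and 12.02 in control hearts. The drugs did not overlap (difference 0.45, SE 0.13, interval 0.17 to 0.73), and the difference was 0.32 without atorvastatin 2, the lowest heart. Slc2a4, the insulin-dependent glucose transporter GLUT4, had a difference of 0.22 (interval 0.05 to 0.39), and Ldha, lactate dehydrogenase A, one of 0.07 (interval -0.18 to 0.32). Camkk2, an upstream kinase of AMP-activated kinase, lay lower in pravastatin hearts at 8.87, 8.63, 9.04 and 8.87, against 9.27, 9.19, 9.30 and 9.06 in atorvastatin hearts (difference -0.35, interval -0.61 to -0.10), with no overlap, while its dimmer probe sets gave 0.18 and -0.04. The list of AMP-activated kinase, insulin and mTOR signalling that holds it had 11 members higher and 13 lower (median -0.02). None of these passed the test.

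Stress genes of cardiomyocytes lay lower in pravastatin hearts in 7 of 11 measured (median -0.12), 4 of the 11 with an unadjusted p under 0.05, beside 3.11% of all tested probe sets, and none passed the test. This list too was chosen with earlier results of these data known, so the share is a description. Mt2, a metallothionein that binds zinc and is raised by metals, glucocorticoids and stress, read 10.43, 10.90, 10.33 and 10.54 in pravastatin hearts, 11.71, 11.19, 11.40 and 10.93 in atorvastatin hearts, and 11.00, 11.17, 10.67 and 10.73 in control hearts. The drugs did not overlap, with pravastatin 2 at 10.90 and atorvastatin 4 at 10.93 as the nearest hearts, and the control hearts spanned parts of both ranges. The difference was -0.76 (SE 0.19, interval -1.16 to -0.35), and it ran from -0.88 to -0.62 with each heart left out in turn. Mt1, the neighbouring metallothionein gene, read 13.39, 13.56, 13.61 and 13.51 in pravastatin hearts, 13.70, 13.58, 13.67 and 14.09 in atorvastatin hearts, and 13.77, 13.92, 13.69 and 13.70 in control hearts. Its groups overlapped by a narrow margin, at 13.58 and 13.61, and its difference of -0.24 (interval -0.46 to -0.02) was -0.13 without atorvastatin 4, the highest heart.

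The promoters of this pair are shown because the genes lie next to each other and gave the same direction. Each is the 250 bases before the RefSeq start on the plus strand in GRCm38.p6, chr8:94172368-94172617 for Mt2 and chr8:94178839-94179088 for Mt1, with matches to the core of a metal response element (TGCACNC or TGCGCNC, both strands) in capitals.
Mt2 promoter: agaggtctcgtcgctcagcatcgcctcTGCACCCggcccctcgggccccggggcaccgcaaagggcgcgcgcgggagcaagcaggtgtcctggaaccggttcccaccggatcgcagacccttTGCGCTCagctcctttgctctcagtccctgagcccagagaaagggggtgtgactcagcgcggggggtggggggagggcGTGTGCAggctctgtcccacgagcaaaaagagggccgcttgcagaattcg
Mt1 promoter: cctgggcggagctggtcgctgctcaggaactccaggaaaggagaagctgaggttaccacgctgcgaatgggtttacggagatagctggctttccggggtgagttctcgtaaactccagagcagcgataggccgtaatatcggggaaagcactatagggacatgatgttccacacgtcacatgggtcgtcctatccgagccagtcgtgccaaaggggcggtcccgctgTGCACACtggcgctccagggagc
The Mt2 window held 3 matches that did not overlap, beginning 223, 128 and 50 bases before the start, the nearest on the minus strand. The Mt1 window held 1, beginning 23 bases before the start. Each window ends at the RefSeq start used, and bases after that start were not searched. The counts therefore describe these windows only and do not rank the promoters of the genes. A match was found in 21.4% of 32851 promoters of that length, and none was tested as a site here. Glucocorticoid target genes, the list to which both metallothioneins also belong, had 4 members higher and 9 lower (median -0.02). Among them Fkbp5, a chaperone partner of the glucocorticoid receptor, lay at -0.02 (interval -0.33 to 0.29) and Tsc22d3, a leucine zipper protein raised by the hormone, at 0.09 (interval -0.16 to 0.34).

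Ccn2, a matricellular growth factor raised by stretch and TGF beta, read 11.68, 10.83, 10.65 and 10.87 in pravastatin hearts, 11.85, 11.80, 11.63 and 11.35 in atorvastatin hearts, and 11.27, 11.23, 10.56 and 10.53 in control hearts. Pravastatin 1 was the one pravastatin heart within the atorvastatin range, and the difference was -0.65 (interval -1.16 to -0.14). Tgfb1 itself lay the other way, at 0.40 (interval 0.04 to 0.76). Of the 32 measured genes of extracellular matrix and fibrosis, 19 lay higher and 13 lower (median 0.01), and Col1a1, a chain of fibrillar collagen, differed by -0.02 (interval -0.32 to 0.27). Myh7, the fetal myosin heavy chain, read 10.50, 10.49, 10.10 and 10.12 in pravastatin hearts, 10.75, 10.36, 11.28 and 10.64 in atorvastatin hearts, and 10.24, 10.55, 10.03 and 9.94 in control hearts, a difference of -0.46 (interval -0.84 to -0.07) in which atorvastatin 3 was the highest heart. Without that heart the difference was -0.28. Of the natriuretic peptides, the usual markers of ventricular load, Nppa lay at -0.07 (interval -0.61 to 0.46) and Nppb at 0.26 (interval -0.18 to 0.69), the second at 0.08 without pravastatin 1.

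Of 20 sarcomere genes 8 lay higher, with a median of -0.03 that ran from -0.21 without atorvastatin 1 to 0.17 without atorvastatin 4, and Actc1, cardiac actin, averaged 15.10 ± 0.23 in pravastatin hearts and 15.07 ± 0.54 in atorvastatin hearts (SD, n = 4 each). Calcium handling genes lay higher in 11 of 13 (median 0.07), and in 6 of 13 without atorvastatin 1 (median -0.01). Of the 13, only Slc8a1, the sodium-calcium exchanger, had groups that did not overlap, beside 1.18% of all tested probe sets with pravastatin higher. It read 7.87, 8.14, 8.0045 and 8.02 in pravastatin hearts against 7.79, 7.72, 7.55 and 7.71 in atorvastatin hearts. The difference was 0.31 (interval -0.06 to 0.68), and its dimmer probe set gave 0.09. Atp2a2, the calcium pump of the sarcoplasmic reticulum, differed by -0.01 (interval -0.50 to 0.49). Of 17 ion channel genes, 9 lay higher and 8 lower. Hcn2, a pacemaker channel, read 6.70, 6.55, 5.96 and 4.77 in pravastatin hearts, 6.84, 6.70, 6.84 and 7.16 in atorvastatin hearts, and 6.94, 7.20, 6.48 and 7.26 in control hearts. The values were dim, the nearest hearts of the drugs both stood at 6.70 without overlapping, and the difference of -0.89 (interval -1.57 to -0.21) was -0.48 without pravastatin 4, the lowest heart. Kcnd3, a transient outward potassium channel, had a difference of -0.28 (interval -0.52 to -0.05), or -0.16 without atorvastatin 4.

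The highest difference of any listed gene was that of Tfrc, in the iron and heme list, with a spread to match. Tfrc, the transferrin receptor that brings iron into cells, read 11.43, 12.19, 13.88 and 13.96 in pravastatin hearts, 11.11, 11.03, 11.88 and 12.57 in atorvastatin hearts, and 11.35, 11.77, 13.88 and 14.03 in control hearts. Mice 3 and 4 lay above mice 1 and 2 in each of these 3 groups, and the difference of 1.22 had an SE of 0.63 and an interval of -0.11 to 2.54 that took in 0. Its dimmer probe sets gave 0.55 and 0.19. Alas1, the enzyme that starts heme synthesis, read 11.98, 11.87, 12.66 and 12.65 in pravastatin hearts, 11.77, 11.09, 11.75 and 12.04 in atorvastatin hearts, and 11.37, 12.38, 13.07 and 12.79 in control hearts (difference 0.63, interval -0.02 to 1.27). Slc40a1, the iron exporter ferroportin, lay the other way, at 10.98, 10.76, 10.18 and 10.16 in pravastatin hearts, 11.62, 11.08, 11.12 and 10.83 in atorvastatin hearts, and 11.32, 11.00, 10.10 and 10.12 in control hearts. Its difference was -0.64 (interval -1.18 to -0.11), and again mice 3 and 4 of the pravastatin and control groups stood apart from mice 1 and 2. What the replicate numbers stand for was not given in the sources used here. Of the 19 measured genes of the list, 10 lay higher and 9 lower, with a median of 0.003.

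**Figure D3:**
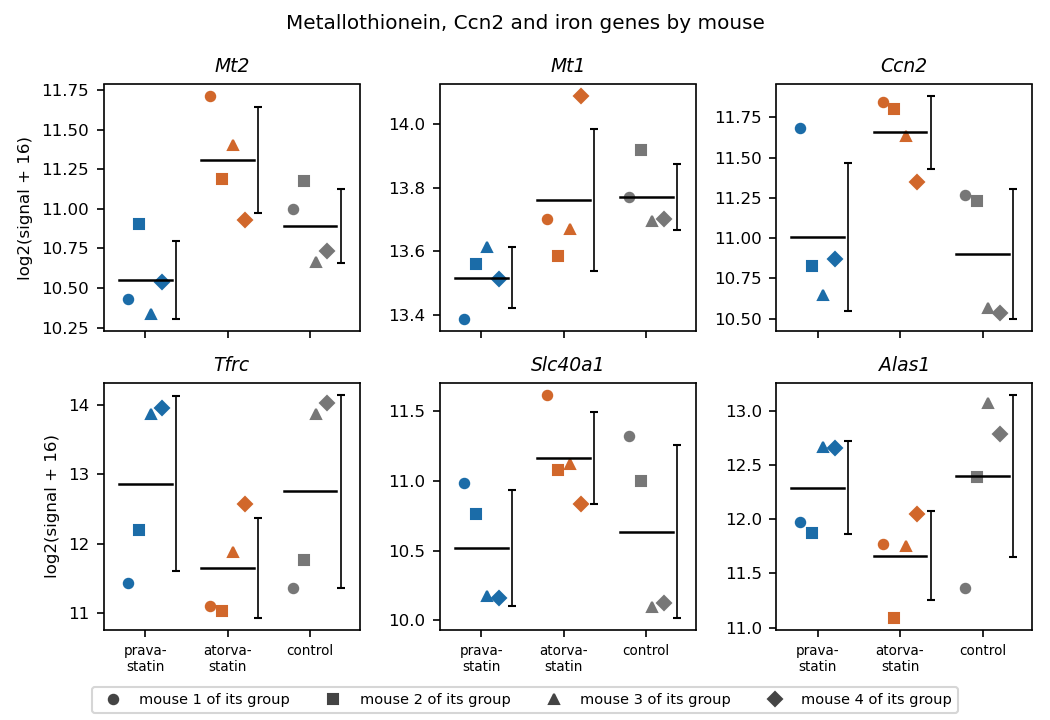
Level of Mt2, Mt1, Ccn2 and 3 iron and heme genes in each heart (log2(signal + 16), 1 point per mouse with its replicate number as the symbol, 4 mice per group, bar at the group mean, whisker 1 SD), with pravastatin left, atorvastatin in the middle and control right; each panel has its own axis, which does not start at 0. Mt2 separates the drugs, between 10.33 and 10.90 in pravastatin hearts and between 10.93 and 11.71 in atorvastatin hearts, and Tfrc splits mice 1 and 2 from mice 3 and 4.

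Antigen presentation genes had the highest median among the pathway lists, 0.19, with 13 of 16 measured genes higher in pravastatin hearts, where 51.4% of all tested probe sets lay above 0. Psmb9, a subunit of the immunoproteasome, read 8.27, 8.15, 8.0004 and 8.20 in pravastatin hearts, 7.57, 7.88, 8.12 and 7.36 in atorvastatin hearts, and 7.76, 8.37, 8.21 and 7.86 in control hearts, with groups that overlapped in 1 atorvastatin heart (difference 0.42, interval 0.05 to 0.80). Of the 16, it was the only gene with an unadjusted p under 0.05, beside 3.11% of all tested probe sets. Tap2, which carries peptides to class I molecules, lay highest, at 0.53 (interval -0.20 to 1.27), but at 0.16 without atorvastatin 4 and 0.88 without pravastatin 3. Nlrc5, the activator of MHC class I genes, differed by 0.31 (interval -0.01 to 0.64), and H2-K1, a class I heavy chain, by 0.22 (interval -0.03 to 0.47). The median of the list was 0.10 without pravastatin 1 and 0.11 without atorvastatin 2. Macrophage and leukocyte markers lay higher in 13 of 20 (median 0.09), and their summed signal ran from 39515 to 58766 in pravastatin hearts, from 35901 to 48578 in atorvastatin hearts and from 43758 to 48861 in control hearts. Adgre1, a surface receptor of macrophages, read 10.40 in pravastatin 1 and between 8.53 and 8.82 in the other pravastatin hearts, against 8.36 to 8.84 in atorvastatin hearts, and without pravastatin 1 Adgre1 lay at 0.12 and the median of that list was -0.04. The part of these cells in the antigen presentation values was not tested. S100a9 and S100a8, which neutrophils hold in abundance, lay at -0.57 each (intervals -1.03 to -0.12 and -1.12 to -0.02). Atorvastatin 1 was the highest heart for both, at 9.41 and 9.46, and without it S100a9 lay at -0.37 and S100a8 at -0.29.

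Genes of protein quality and gene expression machinery gave small differences. Of 18 chaperones, 15 lay higher in pravastatin hearts (median 0.07), with Dnajb4, a co-chaperone of HSP70, at 0.28 (interval 0.06 to 0.51) and Hspa4, an HSP110 family chaperone, at 0.22 (interval 0.00 to 0.44). Hspa1b, the heat-inducible HSP70, lay at -0.12 (interval -0.77 to 0.52). Of 27 proteasome genes, 21 lay higher (median 0.04) and all 27 intervals lay within 1.5-fold; Psma4, a subunit of the core ring, lay highest at 0.25. Of 16 ribosomal protein genes, 12 lay higher (median 0.05), and of 28 Mediator genes 14 lay higher and 14 lower (median 0.005), with Med1 at 0.04 (interval -0.14 to 0.22) by its brightest probe set and 0.31 (interval 0.04 to 0.59), with no overlap, by another. Muscle atrophy and autophagy genes, some of which have been studied in statin myopathy of skeletal muscle, lay higher in 6 of 16 (median -0.03): Fbxo32, the ubiquitin ligase atrogin-1, differed by -0.14 (interval -0.52 to 0.24) and Trim63, the ligase MuRF1, by 0.05 (interval -0.37 to 0.46). Without atorvastatin 2 the proteasome median was -0.02, with 11 of 27 higher, and without atorvastatin 1 the ribosomal median was -0.06 and the chaperone median 0.01. None of these genes passed the test.

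Endothelial genes for which statin effects are known in culture divided into 7 higher and 6 lower of 13 (median 0.02). Nos3, endothelial nitric oxide synthase, read 8.05, 8.04, 7.82 and 7.62 in pravastatin hearts, 8.34, 7.68, 7.81 and 7.63 in atorvastatin hearts, and 7.92, 7.88, 7.74 and 8.33 in control hearts, a difference of 0.02 (interval -0.34 to 0.37). Klf2, the flow-responsive factor of endothelium, differed by -0.08 (interval -0.42 to 0.26) and Thbd, thrombomodulin, by 0.16 (interval -0.06 to 0.37). Endothelial markers lay lower in 12 of 16 (median -0.08), with a summed signal of 41478 to 44702 in pravastatin hearts and 41501 to 48698 in atorvastatin hearts. Cdh5, the cadherin of endothelial junctions, had groups that did not overlap, at 9.30, 9.12, 9.28 and 9.22 in pravastatin hearts against 9.40, 9.41, 9.36 and 9.64 in atorvastatin hearts (difference -0.22, interval -0.48 to 0.03), whereas Pecam1, an adhesion molecule of the same cells, differed by 0.17 (interval -0.14 to 0.48).

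Clock genes bear on the time of day at which hearts were taken, and they lay higher in 7 of 19 (median -0.04). Dbp, an output gene of the clock, read 10.95, 10.89, 11.17 and 11.78 in pravastatin hearts, 11.14, 11.41, 12.07 and 11.77 in atorvastatin hearts, and 10.18, 10.52, 10.53 and 11.14 in control hearts, with a difference of -0.40 (interval -1.11 to 0.31), or -0.24 without atorvastatin 3. Arntl, which encodes BMAL1 and peaks opposite to Dbp, had a difference of 0.24 (interval -0.22 to 0.70), and Nfil3, a repressor in antiphase to Dbp, one of 0.23 (interval -0.34 to 0.81). No clock gene had an unadjusted p under 0.05, and time of day was not tested as a cause of any difference here. Immediate early genes divided evenly at 7 and 7 of 14, with Fos at 0.04 (interval -0.78 to 0.86) and Egr1 at 0.07 (interval -0.65 to 0.80).

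Markers of the other cells that a ventricle sample can hold gave few differences. Fibroblast markers lay higher in 10 of 16 (median 0.02) and smooth muscle and pericyte markers in 6 of 13 (median -0.02), and cardiomyocyte markers in 11 of 19 (median 0.02). Wt1, a marker of the epicardium, read 6.86, 7.73, 7.47 and 7.58 in pravastatin hearts, 8.02, 8.07, 7.51 and 7.88 in atorvastatin hearts, and 7.60, 7.39, 7.65 and 7.81 in control hearts, with a difference of -0.46 (interval -0.85 to -0.07), or -0.28 without pravastatin 1, and 7 of the 10 epicardial markers were not among the tested probe sets. Hba-a2, an alpha globin that tracks residual blood, had a difference of 0.24 (interval 0.02 to 0.46), and all 3 measured erythroid markers lay higher (median 0.24). Adiponectin and perilipin 1 (Adipoq, Plin1), the defining markers of fat cells, were not among the tested probe sets, nor was Th, of sympathetic nerves. Dbh, the noradrenaline-making enzyme of those nerves, lay higher in pravastatin hearts by its brighter probe set, at 8.07, 8.35, 8.67 and 8.74, against 7.82, 7.83, 7.53 and 7.73 in atorvastatin hearts and 8.39, 8.54, 8.58 and 8.09 in control hearts (difference 0.73, SE 0.19, interval 0.33 to 1.13). The atorvastatin hearts were the low group, below all control hearts, and the dimmer Dbh probe set gave 0.18.

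**Figure D4:**
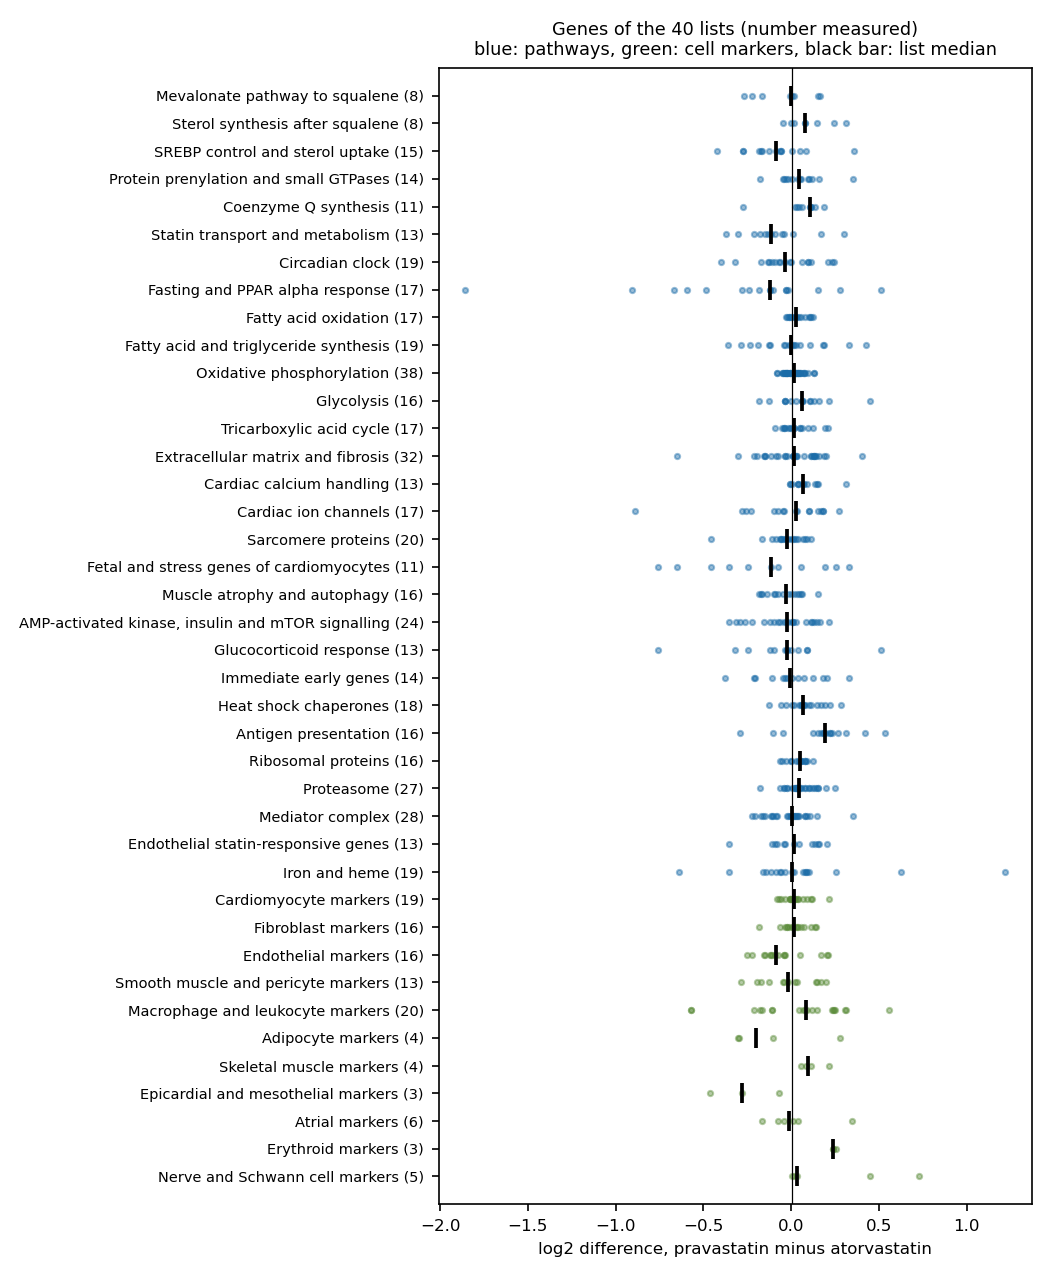
Differences of the measured genes of all 40 lists (points, log2 scale, blue for pathways and green for cell markers), with the median of each list as a black bar, the number of measured genes in brackets and a thin line at the median of all tested probe sets, 0.004. List medians run between -0.28 for epicardial markers and 0.24 for erythroid markers, and single genes such as Angptl4, at -1.86, and Tfrc, at 1.22, lie far from their lists.

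The genes with the largest differences were taken as the 12 highest and the 12 lowest of the first 100 probe sets by p that carry 1 gene symbol. As this choice used the differences, the values are a description. The 12 highest ran from 0.61 to 0.82 and the 12 lowest from -1.86 to -0.60, with unadjusted p between 0.000204 and 0.00956 and a limma adjusted p of 0.9999 throughout. In 9 of the 12 highest and 11 of the 12 lowest the drugs did not overlap, beside 1.18% and 0.786% of all tested probe sets. A choice by small p favours such genes. Of the 24 genes, 12 had other tested probe sets, 19 in all. Of these 16 lay in the same direction and 3 in the other. Of the 19, 5, of 4 genes, had an unadjusted p under 0.05, beside 3.11% of all tested probe sets. Probe sets of 1 gene can read the same transcript, so these are not independent of the chosen ones. The 4 genes were Cpt1a, Ucp3, Scd2 and Plekhh1.

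Plekhh1, a pleckstrin homology protein, read 10.68, 10.76, 10.26 and 10.72 in pravastatin hearts, 9.87, 9.49, 10.12 and 9.78 in atorvastatin hearts, and 9.70, 10.81, 10.64 and 9.77 in control hearts. All pravastatin hearts lay above all atorvastatin hearts by both probe sets (0.79, interval 0.31 to 1.27, and 0.62), while the control hearts split into both ranges. Ube2g1, a ubiquitin-conjugating enzyme, read 10.49, 10.52, 11.13 and 10.64 in pravastatin hearts, 10.01, 10.01, 10.11 and 10.21 in atorvastatin hearts, and 9.93, 10.07, 10.24 and 10.36 in control hearts. Here the pravastatin hearts were the ones outside the control range (difference 0.61, interval 0.33 to 0.89), and a brighter probe set of the gene gave 0.07. Socs6, a suppressor of cytokine signalling, had a difference of 0.66 (interval 0.34 to 0.98) by a probe set at 8.05 in pravastatin hearts and 7.39 in atorvastatin hearts, beside 0.12 and 0.21 by its others. Slc7a7, a carrier of cationic amino acids, read 7.64, 6.72, 6.80 and 7.05 in pravastatin hearts, all above the 6.54, 5.88, 6.34 and 6.31 of atorvastatin hearts (difference 0.79, interval 0.27 to 1.30).

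Like Slc7a7, the following genes of the highest 12 were dim. Gpr153, an orphan receptor, gave the highest difference, 0.82 (interval 0.26 to 1.39), with atorvastatin 3 at 7.55 among the pravastatin values of 7.33 to 7.77. Snx22, a sorting nexin, had a difference of 0.80, or 0.49 without atorvastatin 2, Fbrsl1 one of 0.79 with -0.06 by a brighter probe set, and Wdfy4, a protein of dendritic cells, one of 0.73. Mpdz, a scaffold of many PDZ domains, had a difference of 0.61, and its brightest probe set gave -0.05. Plek, a protein of platelets and leukocytes, had a difference of 0.61, highest in pravastatin 1 at 8.17, the heart in which Adgre1 was also highest.

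Among the lowest 12, Ypel3, a small protein of growth arrest, read 9.66, 9.50, 8.96 and 8.79 in pravastatin hearts, 10.35, 9.58, 9.93 and 9.88 in atorvastatin hearts, and 9.81, 9.96, 9.32 and 9.07 in control hearts, a difference of -0.71 (interval -1.17 to -0.25) with groups that overlapped. Fmn1, a formin that nucleates actin, read 6.65, 6.74, 6.58 and 6.70 in pravastatin hearts, all below the 7.76, 7.35, 6.84 and 7.63 of atorvastatin hearts (difference -0.73). Bicra, a subunit of a chromatin remodelling complex, had a difference of -0.72, Slc46a1, a folate carrier, one of -0.67 with 0.04 by its other probe set, Meig1 one of -0.64 and Ubxn10 one of -0.63. These last 5 genes were dim, between 6.01 and 8.84 in all hearts of both drugs. The smallest p of all tested probe sets belonged to Wdr26, a subunit of a ubiquitin ligase complex, at 11.97 ± 0.17 in pravastatin hearts and 11.48 ± 0.12 in atorvastatin hearts (SD, n = 4 each; difference 0.49, interval 0.30 to 0.69, unadjusted p = 4.76e-05, limma adjusted p = 0.9999). Its other 4 probe sets gave 0.02, -0.07, 0.20 and 0.05.

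**Figure D5:**
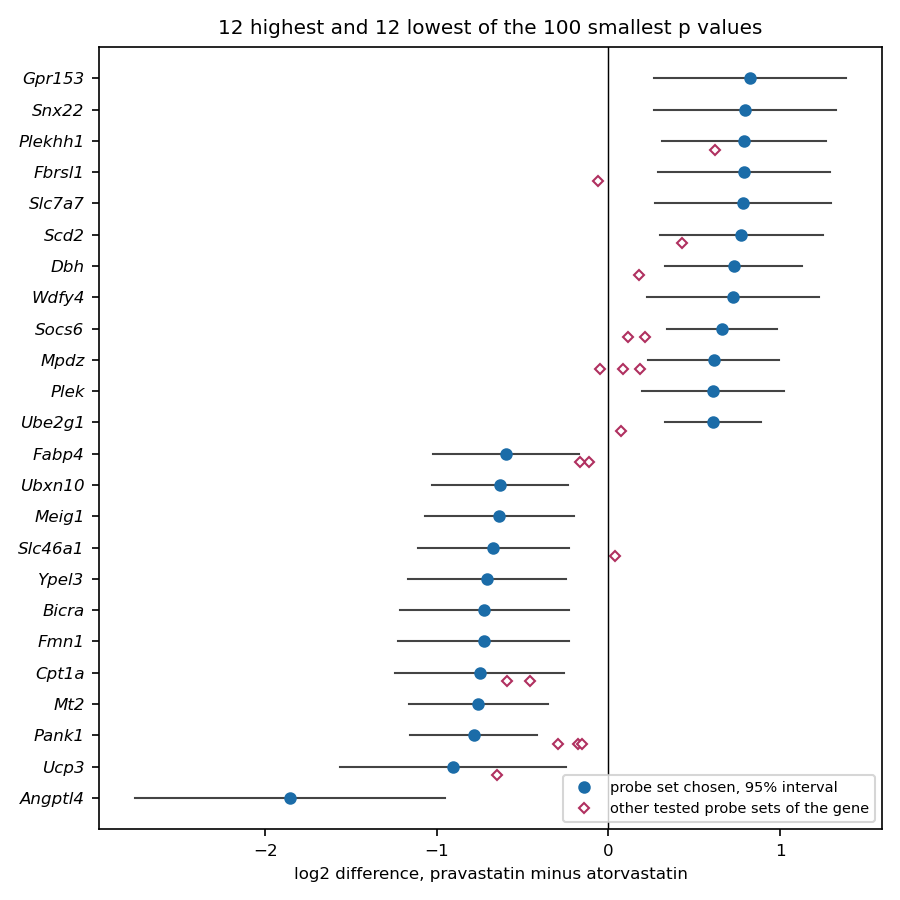
Differences of the 24 genes with the largest differences between pravastatin and atorvastatin hearts (dots, log2 scale, with 95% intervals as lines, n = 4 hearts each), and of the other tested probe sets of the same genes (open diamonds). For Cpt1a, Ucp3, Scd2 and Plekhh1 the diamonds lie on the same side as the dot, between -0.65 and 0.62, and for Fbrsl1, Mpdz and Slc46a1 a diamond lies at -0.06, -0.05 and 0.04, across 0 from the dot.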

How the data were processed

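RNA of the left ventricle of single mice was hybridised to Affymetrix mouse genome arrays after amplification from 100 ng. The deposited values are a signal intensity per probe set on a linear scale, which the authors computed with MAS5 per the submitters' processing notes; its version is not given in the sources used here. Of 45037 probe sets that are not controls, the brighter 50% by mean log2 level over 20 arrays were kept (signal 81.8), leaving 22518, of which 19002 had 1 gene symbol, for 11229 genes. The comparison was fitted with limma 3.58.1 in R 4.3.3 on log2(signal + 16), over all 20 arrays with 1 mean per group and a trended prior (15 residual and 4.23 prior degrees of freedom). Adjustment for multiple testing followed Benjamini and Hochberg, and calls were made at 0.05. A pseudocount of 16 understates differences of dim probe sets. The limma p values set each difference against the spread within groups, pooled over all groups, with 1 mouse per array. That spread holds differences between arrays as well as between mice.

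Named genes were the 12 highest and 12 lowest differences among the 100 smallest p, key genes of 40 lists and the 2 members of each list with the smallest p. A further 15 were chosen after their values were seen: Txnip, Acot1, Plin2, Mt1, Abca1, Abcg1, Tap2, Adgre1, Per1, Hmox1, Idi1, Fdps, Dhcr7, Srebf2 and Wdr26. Members and lists were chosen with earlier results of these data known. List genes were read from the brightest probe set. The fit was tested on simulated data.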

Additional observations from a re-analysis of the deposited data

Results flagged for a closer look

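In each group of 4 hearts, the highest or lowest was set against the other 3, for 175 named probe sets and 8 array measures. Of 366 such groups 23 held a heart whose gap to its nearest neighbour passed the 95% critical value for a single far value, where chance gives about 1 in 20, and none of these was tested further. Among the genes with the largest differences, Plekhh1 was lowest in pravastatin 3 at 10.26, Wdfy4 highest in pravastatin 2 at 7.44, Mpdz lowest in pravastatin 1 at 7.29 and Cpt1a lowest in pravastatin 3 at 9.54. In atorvastatin 1, Socs6 was highest at 7.83 and Plek highest at 7.70, so that in these genes the rest of the atorvastatin hearts lay farther from the pravastatin hearts.

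Atorvastatin 2, the array with the highest median signal, held 4 of these values: Icmt at 9.16, H2-K1 at 10.56 and Psma1 at 11.98 were its lowest, and 27253 of its probe sets lay above a signal of 100, against 19295 to 20319 in the other atorvastatin hearts. Pravastatin 1 was highest in Nppb at 13.46, in Dcn, a fibroblast proteoglycan, at 12.75, and in Adgre1 at 10.40. Pravastatin 2 was highest in Dld, a subunit shared by mitochondrial dehydrogenases, at 12.19, in Col1a1 at 11.90 and in Abca1 at 10.14, and lowest in Fdps, farnesyl diphosphate synthase, at 6.66. Its Actb 3' to 5' log2 signal difference, a measure of RNA integrity, was also the lowest of its group at 2.01. The atorvastatin hearts spread more widely in that measure, from 1.84 in atorvastatin 2 to 2.86 in atorvastatin 4, without a flagged heart. Its SD was 0.43 in atorvastatin hearts and 0.15 in pravastatin hearts (n = 4 each). The remaining flagged values were Alas2, the erythroid heme enzyme, highest in pravastatin 3 at 8.03, Fos lowest in atorvastatin 4 at 6.78, Cdh5 highest in atorvastatin 4 at 9.64, Acta1, skeletal actin, lowest in atorvastatin 3 at 10.93, and Abca1 lowest in atorvastatin 3 at 9.87.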

How the results depend on the processing

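Under 20 other settings, 8 of which left out a heart, no probe set was called, and the smallest adjusted p was 0.11, without pravastatin 1. The 700 probe sets at an unadjusted p under 0.05 became 82 with arrays centred on their median, 1212 with no filter, 1428 with array weights, 1199 with the median signal as a covariate and 396 with 1 probe set per gene, and ran from 482 to 976 with a heart left out (976 without atorvastatin 2); the cause was not tested. With the replicate number as a block, 929 had an unadjusted p under 0.05 and 0 were called. Deviations of same-numbered arrays correlated at 0.69, 0.14, 0.01 and -0.15, and 2 of 4 correlated best with their own number. The numbers were not treated as pairs, but these correlations cannot decide whether they mark a shared condition. They match single numbers, and a split of mice 1 and 2 from mice 3 and 4, as in Tfrc, was not tested. In the control group, mice 1 and 2 also lay above mice 3 and 4 in Angptl4, Ucp3, Mt2, Ccn2 and Ypel3. Of these genes, only Ypel3 split that way in pravastatin hearts. Of 175 named probe sets 44 changed sign in some setting, and none passed. None of the 24 with the largest differences changed sign. These were chosen for small p and large differences, so their constant sign follows largely from that choice. The medians of 22 of 40 lists changed sign in some setting. Those that moved beyond the spread between hearts were the mevalonate genes (-0.17 with the brightest 30% of probe sets, -0.0779 to 0.028 with a heart left out) and, with a heart left out, statin transport (-0.16 to -0.0544), fasting (-0.24 to -0.11), fatty acid and triglyceride synthesis (-0.0732 to 0.0235), fetal and stress genes (-0.30 to -0.0674), erythroid markers (0.20 to 0.34) and nerve markers (0.0175 to 0.17). Detection calls were not used, so the signal of dim probe sets over background is not known here.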
